A study of Mus musculus with 16 samples.

Results

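Id1, Id2 and Id3 (NCBI genes 15901, 15902 and 15903) encode small helix-loop-helix proteins that inhibit differentiation. They were chosen by name, and each was followed in 1 interval of the mouse build mm9. The intervals were chr2:152559000-152567000 for Id1, chr12:25775000-25784000 for Id2 and chr4:135696000-135705000 for Id3. Together they held 15 of the 525774 regions that the 9 chromatin immunoprecipitation sequencing (ChIP-seq) libraries list, when windows up to 200 bp apart are joined. Of these, 6 lay in the Id1, 3 in the Id2 and 6 in the Id3 interval.

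All libraries came from neural progenitor cells derived from V6.5, a mouse embryonic stem cell line, through embryoid bodies kept for 4 days, and were fixed with 1% formaldehyde. RNA polymerase II (Pol II), the Mediator subunit Med26 and the Mediator kinase Cdk8 were each mapped in 1 library after Cbx3 siRNA and in 1 library after control siRNA against luciferase, 72 hours after transfection. Pol II (1 library) and Cbx3 (sets 1 and 2) were also mapped in untreated cells. Cbx3 is heterochromatin protein HP1 gamma, and the design asks how its loss bears on Mediator and Pol II occupancy. With 1 library per antibody and arm, no difference below has a replicate check or a p-value. The labels give no measure of the knockdown, and the level of Cbx3 after siRNA was not analysed here. The progenitor label was not checked against marker genes, because no gene positions of mm9 were used here.

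Id proteins carry a helix-loop-helix domain but lack the basic stretch that contacts DNA. They pair with the E proteins Tcf3, Tcf4 and Tcf12, and so keep these from joining proneural factors on E-box sites. Bone morphogenetic protein signalling through Smad proteins is a well known inducer of Id genes, and in the developing brain Id proteins are known for holding progenitors in an undifferentiated state.

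The highest Pol II signal of the interval was lower after Cbx3 siRNA than after control siRNA at Id2 and higher at Id3. Each of these differences lay within counting error. The promoters of Id2 and Id3 are shown because of the opposite directions. Both are RefSeq sequences of the build GRCm38.p6, 5′ to 3′ on the strand of the gene, from 250 bases before to 50 after its start. They were matched by symbol for 2 of the 3 genes, Id1 being the other. Capitals mark CCAAT on either strand and TATAA.
Id2 (GRCm38.p6 chr12:25096043-25096342, minus strand): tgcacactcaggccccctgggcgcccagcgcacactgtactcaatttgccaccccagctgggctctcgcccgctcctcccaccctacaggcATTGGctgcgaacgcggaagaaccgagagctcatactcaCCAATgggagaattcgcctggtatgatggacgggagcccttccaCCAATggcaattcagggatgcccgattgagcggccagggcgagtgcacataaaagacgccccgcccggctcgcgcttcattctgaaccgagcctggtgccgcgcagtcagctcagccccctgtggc
Id3 (GRCm38.p6 chr4:136143572-136143871, plus strand): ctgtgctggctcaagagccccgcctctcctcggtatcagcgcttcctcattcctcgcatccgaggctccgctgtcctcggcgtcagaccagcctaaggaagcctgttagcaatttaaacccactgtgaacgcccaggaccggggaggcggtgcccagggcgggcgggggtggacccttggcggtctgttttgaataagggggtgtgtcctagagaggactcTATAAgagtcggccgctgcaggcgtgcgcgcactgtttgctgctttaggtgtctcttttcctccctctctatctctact

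The 2 promoters differed in these exact letters. Variants of CCAAT and TATAA were not searched, so a promoter without a match may still hold a variant. The Id2 promoter held CCAAT at 3 places, beginning 159, 120 and 76 bases before the start, and no TATAA. The Id3 promoter held TATAA once, 29 bases before the start, and no CCAAT. Of 32851 mouse promoters of the same length, 37.4% held CCAAT and 24.9% held TATAA on either strand. The GC box letters GGGCGG were found once in Id2 and at 2 overlapping places in Id3, against 35.7% of all promoters with at least 1 match. The E-box letters CANNTG were found once in Id2 and not in Id3, against 72.3% of all promoters. GGCGCC, a GC-rich element of the kind Smad proteins bind, was found once in Id2 and not in Id3, against 11.9%. No match overlapped one of another motif. GC content was 63.3% in Id2 and 60% in Id3. These coordinates are of another build than the ChIP-seq windows, so the promoters were not placed on the windows, and windows below are not assigned to a promoter or a gene body.

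Each deposited list holds windows of 50 bp with a signal made by the authors. The lists held from 2721 windows (Med26, Cbx3 siRNA) to 923942 windows (Cbx3 set 1). In all 9, signals were whole multiples of 1 step, and 50 steps were read as 1 read covering a window, an inference from the values. On that reading 1 read adds 1.10 to the signal in both siRNA Pol II libraries and 1.05 in the untreated one. The lowest listed signal was 6.01 in the siRNA Pol II lists and 9.02 in the untreated list. A window missing from a list is not a window without signal. Among Pol II windows next to an unlisted one, 40.4% after Cbx3 siRNA and 44.8% after control siRNA still had at least 2 times the lowest listed signal.

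**Figure D1:**
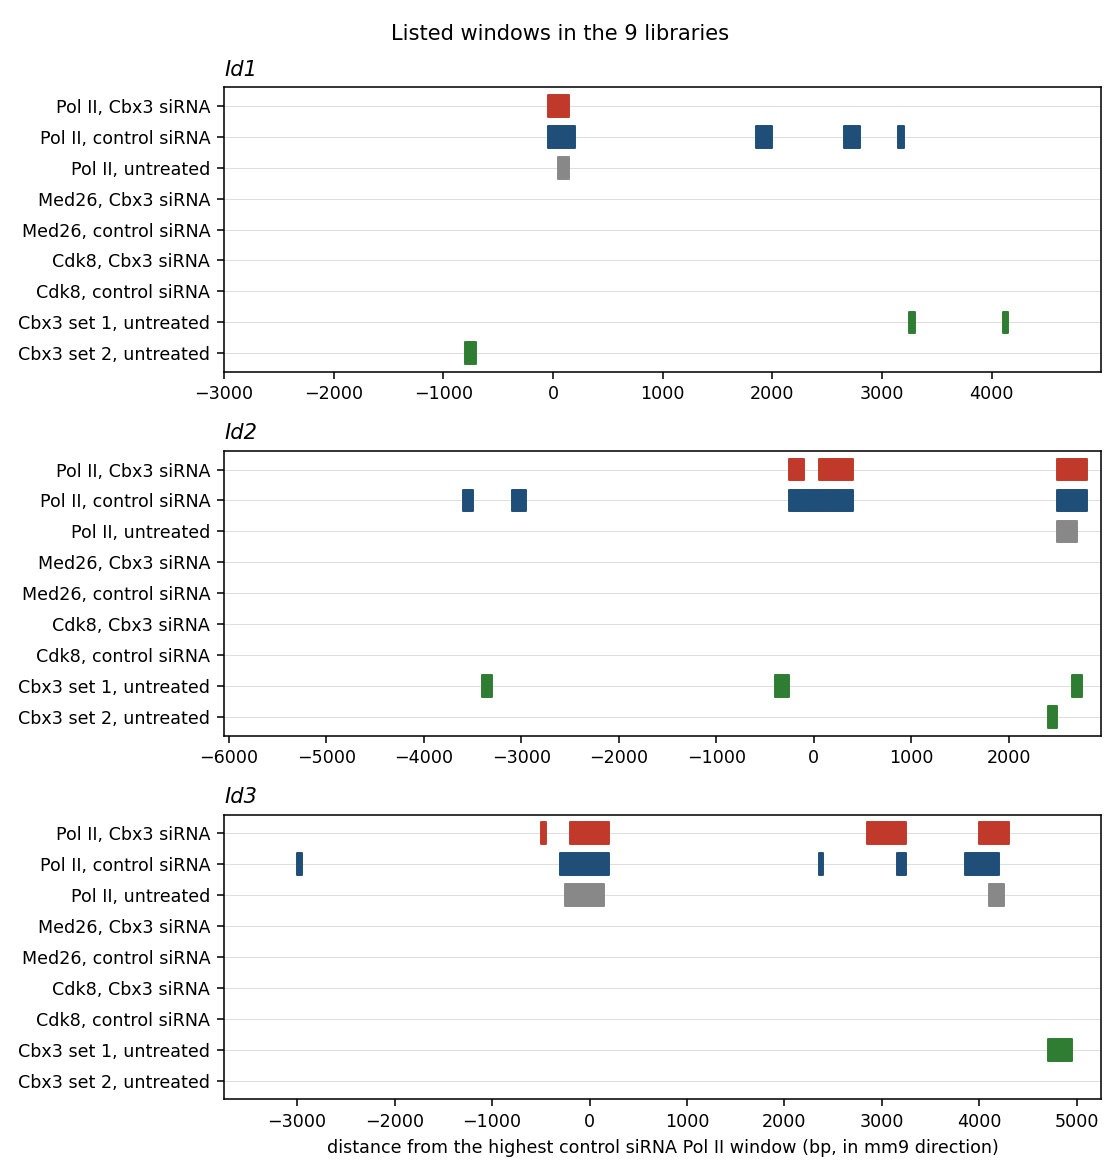
Listed windows in the Id1, Id2 and Id3 intervals. Each row is 1 library, each bar a listed window of 50 bp, and the horizontal axis gives the distance in bp from the window with the highest control siRNA Pol II signal of that gene. Pol II was listed at all 3 genes in every Pol II library, Med26 and Cdk8 at none of them in either siRNA arm, and Cbx3 set 1 at all 3. Set 1 is the longest list, with 923942 windows.

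Pol II was listed in all 3 intervals in each of its 3 libraries. After Cbx3 siRNA, the Id1, Id2 and Id3 intervals held 4, 16 and 23 listed Pol II windows. After control siRNA they held 12, 24 and 21, and in untreated cells 2, 4 and 11. Id1 and Id2 thus had fewer listed windows after Cbx3 siRNA than after control siRNA, and Id3 had slightly more. The whole Pol II lists also differ in length, with 101091 windows after Cbx3 siRNA, 116001 after control siRNA and 34855 in untreated cells. The summed Pol II signal of the Id1 interval was 71.4 after Cbx3 siRNA, against 159 after control siRNA. It was 222 against 423 at Id2. At Id3 it was 363 against 308.

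The order of the 3 genes by their highest 50 bp window was not the same in the 3 Pol II libraries. After Cbx3 siRNA Id3 stood first with a signal of 34.7 (95% exact Poisson interval 24.1 to 49.7), then Id2 with 22.7 (14.3 to 35.3) and Id1 with 20.5 (12.6 to 32.6). After control siRNA Id2 stood first with 34.1 (23.2 to 48.4), then Id3 with 27.7 (17.8 to 40.6) and Id1 with 23.4 (14.3 to 35.3). In untreated cells the order was Id2 with 25.8 (16.2 to 37.6), Id1 with 18.2 (10.4 to 28.7) and Id3 with 17.1 (9.63 to 27.4). Every pair of neighbours in these orders had overlapping intervals. The intervals rest on the inferred reads and cover counting error only.

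Joining the windows of the 3 Pol II libraries gave 13 regions, 4 at Id1, 4 at Id2 and 5 at Id3. The region holding the highest control window is called the leading region of its gene. Of the 13, 6 were listed in both siRNA arms and 4 in all 3 libraries. The other 7 were listed after control siRNA and not after Cbx3 siRNA, and none was listed after Cbx3 siRNA alone. These 7 were weak, with highest control signals from 6.93 to 11.4 over 14 windows in all. Across the genome, 26.7% of control Pol II regions had no listed window after Cbx3 siRNA. The share was alike the other way round, since 26.8% of Cbx3 siRNA Pol II regions had no listed window after control siRNA. The lowest listed signal was 6.01 in both arms. Both shares cover regions of every strength, and no share was counted for regions as weak as these 7. Their absence from the Cbx3 siRNA list is therefore not read as particular to the Id genes.

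**Figure D2:**
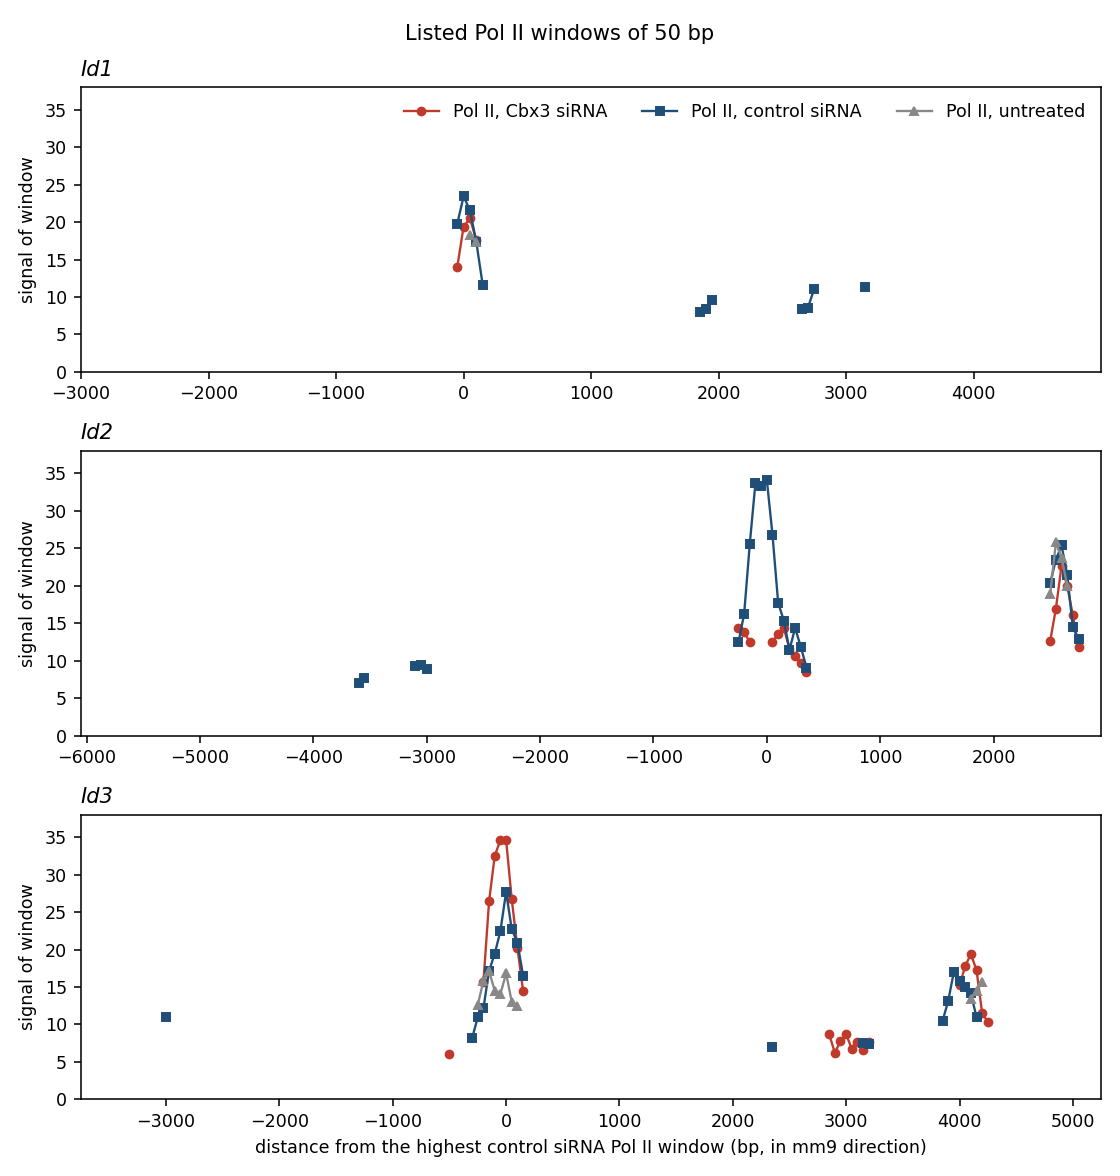
Signal of each listed Pol II window (vertical axis, units of the deposited files) against distance in bp from the highest control siRNA window. Points joined by lines are neighbouring listed windows, and gaps are unlisted windows. The control siRNA profile is highest at Id2 (34.1), the Cbx3 siRNA profile is highest at Id3 (34.7), and at Id2 the 3 highest control windows have no listed Cbx3 siRNA window.

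Id1, a dimerisation partner of E proteins and a standard readout of bone morphogenetic protein signalling, had 1 Pol II region shared by the libraries. It lay on chr2:152561951-152562200. Its listed windows had signals of 13.9, 19.4, 20.5 and 17.6 after Cbx3 siRNA. The same windows had 19.8, 23.4, 21.6 and 17.3 after control siRNA, with a further window at 11.6. In untreated cells 2 windows were listed, with 18.2 and 17.3. The profiles nearly coincided, with 3 of the 4 shared windows lower and 1 higher after Cbx3 siRNA.

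The highest Id1 window was 20.5 after Cbx3 siRNA and 23.4 after control siRNA, a log2 ratio of -0.19 (95% exact interval from counting error -1.12 to 0.82). The median of all 74288 windows listed in both arms was -0.29. Relative to that median the Id1 ratio was 0.10, so its sign depends on the scaling. Of the 11325 Pol II regions listed in both arms, 60.0% had a lower ratio than Id1. The control sum at Id1 also included 7 windows in 3 weak regions, 1850 to 3150 bp from the highest control window, which were listed after control siRNA and in neither other Pol II library. Their signals reached 11.4.

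Id2, known for its part in lymphoid and neural lineages, had 2 strong Pol II regions. The leading one lay on chr12:25780801-25781450 and the other on chr12:25783551-25783850, near the right edge of the interval. In the leading region the highest signal was 14.4 after Cbx3 siRNA and 34.1 after control siRNA, and no window was listed in untreated cells. The control library was the one that listed windows at the summit of this region, and the signal of the other two there is not known. In the other region the highest signals were 22.7 after Cbx3 siRNA, 25.4 after control siRNA and 25.8 in untreated cells. These 3 values lay within each other's counting error.

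The leading Id2 region had a log2 ratio of -1.24 (interval -2.31 to -0.28) between its highest listed windows. This equals 2.37-fold lower after Cbx3 siRNA, from the equivalent of 13 reads against 31. The 13 reads come from outside the summit, whose windows were not listed after Cbx3 siRNA, as given below. Leading regions were also chosen by their control signal, which tends to lower the ratio. The interval covers neither point, so it does not establish a fall beyond counting error. Relative to the median of all windows the ratio was -0.96. Across the genome, 21.6% of the 11325 shared regions were at least 1.5-fold lower and 3.63% at least 2-fold lower after Cbx3 siRNA. Among the 3108 regions whose control signal lay between those of the 3 leading Id regions, 4.92% were at least 2-fold lower. Only 0.945% of the shared regions had a lower ratio than Id2. The other Id2 region had a ratio of -0.16 (interval -1.06 to 0.79), with 5 of 6 shared windows lower.

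The low ratio of the leading Id2 region rested on its summit. The 3 control windows on chr12:25780951-25781100 had signals of 33.8, 33.3 and 34.1, and none was listed after Cbx3 siRNA. The listed Cbx3 siRNA windows on either side of this gap both had 12.5. In the 10 windows of the region listed in both arms, the median log2 ratio was -0.26, close to the -0.29 of all windows, with 8 lower and 2 higher. The ratios of these windows ran from -1.10, beside the gap, to 0.20. A gap at such high control windows was uncommon. Of 11463 control windows with a signal of at least 33.3, 91 (0.794%) were not listed after Cbx3 siRNA. This count was chosen after the values were seen. The signal inside the gap is not known from the list. The 2.37-fold therefore compares different positions, 14.4 on chr12:25781201-25781250 after Cbx3 siRNA against 34.1 on chr12:25781051-25781100 after control siRNA. It does not hold for the windows listed in both arms, whose median is given above.

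Over the whole Id2 interval, which mixes the 2 regions, the highest windows gave a log2 ratio of -0.59 (interval -1.43 to 0.28), just past the 1.5-fold limit. That call was lost in the windows listed in both arms, where the median was -0.20, and relative to all windows, where the ratio was -0.30.

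Id3, an inhibitor that acts alongside Id1 in progenitors and blood vessels, was the gene with higher Pol II after Cbx3 siRNA. Its leading region lay on chr4:135699251-135699950. The highest signal was 34.7 after Cbx3 siRNA, 27.7 after control siRNA and 17.1 in untreated cells. The 8 windows listed in both siRNA arms ran from 14.5 to 34.7 after Cbx3 siRNA and from 12.2 to 27.7 after control siRNA. In 6 of these 8 windows the signal was higher after Cbx3 siRNA, with a median log2 ratio of 0.34. Neighbouring windows share reads and are not replicates.

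The log2 ratio of the highest Id3 windows was 0.32 (interval -0.44 to 1.17), or 1.25-fold, and 0.61 relative to the median of all windows. As deposited it did not pass the 1.5-fold limit, which 2.2% of shared regions passed upwards. Relative to the median of all windows it passed that limit, as did 7.75% of shared regions. Regions higher by any amount made up 23.1% of the 11325 shared regions, and 15% of those with a control signal between the leading Id regions. A lower ratio than that of Id3 was seen in 93.2% of shared regions. Within those 11325 regions, Id3 exceeded 88.6% by its signal after Cbx3 siRNA and 60.7% by its control signal. The leading Id2 region exceeded 28.8% after Cbx3 siRNA and 75.7% after control siRNA, and Id1 54.3% and 48.3%. The 28.8% ranks a window outside the Id2 control summit, whose windows were not listed after Cbx3 siRNA.

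Another 2 regions of the Id3 interval were listed in both siRNA arms. On chr4:135703601-135704050 the highest signal was 19.4 after Cbx3 siRNA, 17.0 after control siRNA and 15.7 in untreated cells, with a siRNA log2 ratio of 0.19 (interval -0.81 to 1.35). Here the highest window lay 3950 bp from the leading summit after control siRNA and 4100 bp from it after Cbx3 siRNA. On chr4:135702601-135703000, 8 windows were listed after Cbx3 siRNA and 2 after control siRNA, with highest signals of 8.69 and 7.57. In that region 1 of the 2 shared windows was higher after Cbx3 siRNA and 1 lower, with a median log2 ratio of -0.08. On chr4:135703601-135704050, 3 of the 4 shared windows were higher and 1 was lower. The highest window of all 3 Id3 regions of both arms was thus higher after Cbx3 siRNA, each within its counting error. These 3 regions come from the same 2 libraries and are not replicates.

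**Figure D3:**
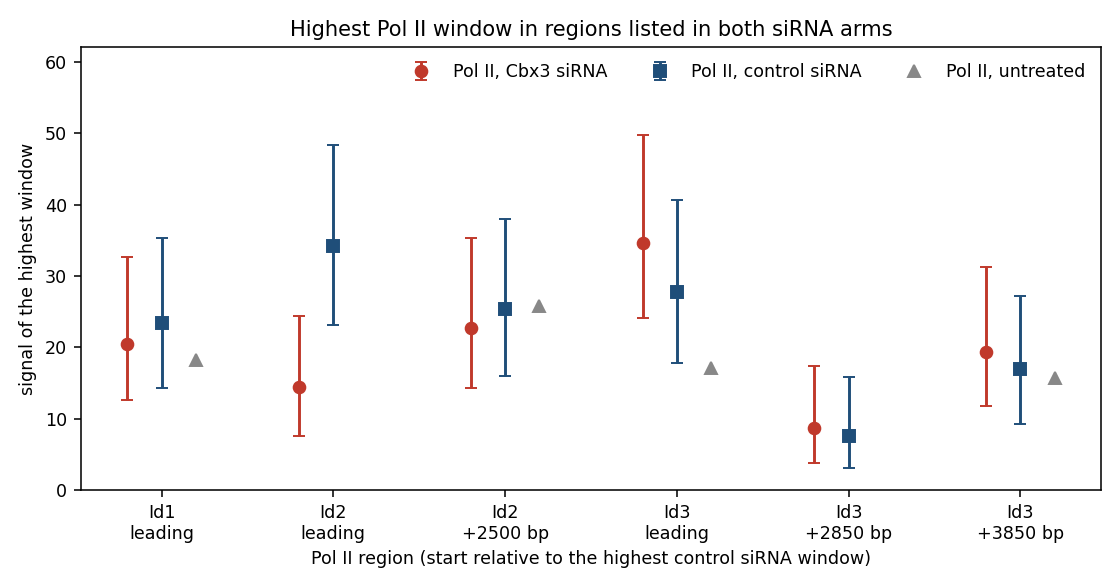
Signal of the highest window in the 6 Pol II regions listed in both siRNA arms. Circles are Cbx3 siRNA and squares control siRNA, each with a 95% exact Poisson interval from inferred reads, and triangles are untreated cells, drawn without an interval. The 2 arms are farthest apart at the leading Id2 region (14.4 against 34.1), where their intervals meet only between 23.2 and 24.5, and the intervals overlap widely at the other 5 regions. At the leading Id2 region the control summit windows are unlisted after Cbx3 siRNA, so its circle is a window at another position.

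**Figure D4:**
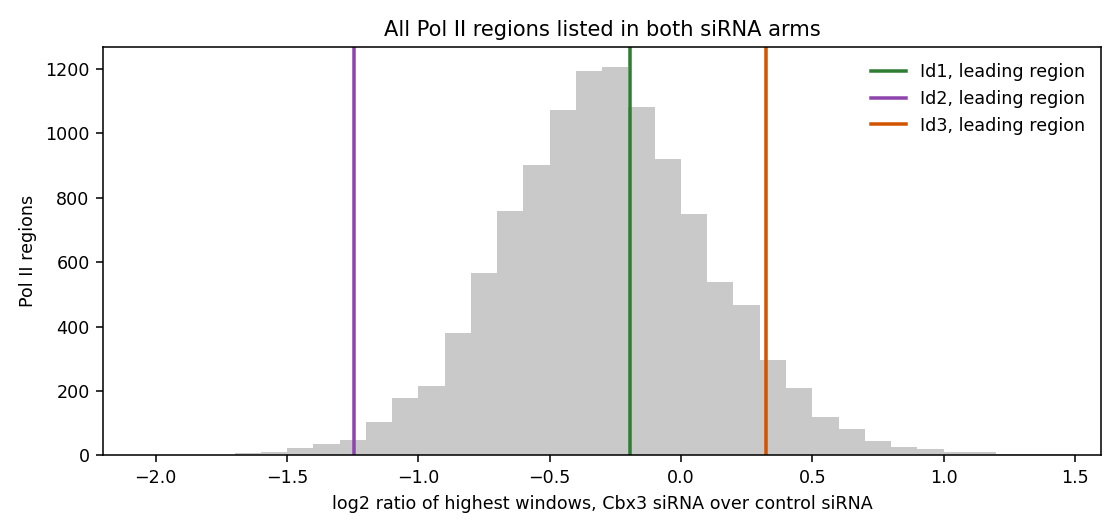
Number of Pol II regions (vertical axis) by log2 ratio of highest windows, Cbx3 siRNA over control siRNA, for the 11325 regions listed in both arms. Vertical lines mark the leading regions, with Id1 (-0.19) near the middle, Id2 (-1.24) in the lower tail and Id3 (0.32) in the upper part. The Id2 ratio compares windows at different positions, since its control summit windows are unlisted after Cbx3 siRNA.

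Control siRNA was also set against untreated cells, the only Pol II comparison without a knockdown. It shares its control library with the comparison above, and 1 read has a different value in the untreated file. The highest Id1 window was 23.4 after control siRNA and 18.2 in untreated cells, a log2 ratio of 0.36. At the leading Id3 region the values were 27.7 and 17.1, a log2 ratio of 0.70. In the Id2 region on chr12:25783551-25783850 they were 25.4 and 25.8, a log2 ratio of -0.02. The median of all 32821 windows listed in both was 0.60, and 57% of 7304 shared regions were at least 1.5-fold higher after control siRNA, so the Id3 value lay near the background.

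The leading Id2 region, at 34.1 after control siRNA, had no listed window in untreated cells. Of all control regions 54.3% had none, but of the 2765 with a signal at least that high only 2.5% had none, a limit chosen after the values were seen. Both comparisons of this region share the control library.

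Mediator was not listed at the Id genes. Med26, a subunit that links Mediator to elongation factors, had 0 listed windows of the 160 possible in the Id1 interval and of the 180 possible in each of the Id2 and Id3 intervals, in both siRNA arms. Cdk8, the kinase of the detachable Mediator module, likewise had 0 in both arms. None of the 13 control Pol II regions of the intervals therefore held either factor. Across the genome, 5.25% of control Pol II regions held Med26 listed after Cbx3 siRNA and 25.5% Med26 listed after control siRNA. For Cdk8 the shares were 8.55% after Cbx3 siRNA and 7.14% after control siRNA. Among the 3165 control regions with a Pol II signal between those of the leading Id regions, 8.82% and 43.4% held Med26, and 13.8% and 11.3% held Cdk8, in the same order. With 3 leading regions, a count of 0 supports no statement particular to the Id genes.

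The nearest listed Mediator windows lay well outside the intervals. At Id1 the nearest Med26 window was 318 kb away after Cbx3 siRNA and 25.6 kb away after control siRNA. At Id2 the distances were 166 kb after Cbx3 siRNA and 115 kb after control siRNA. At Id3 they were 706 kb and 86.8 kb. Med26 was thus nearer in the control list at all 3 genes, but that list is also the longer one, with 15546 windows against 2721 after Cbx3 siRNA. The nearest Cdk8 window was 25.4 kb from Id1 after Cbx3 siRNA and 13.8 kb after control siRNA. At Id2 it was 280 kb away after Cbx3 siRNA and 2062 kb after control siRNA, and at Id3 198 kb and 101 kb. Whether Med26 changed at the Id genes after Cbx3 siRNA cannot be read from these lists, since neither arm lists it there.

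Cbx3 was listed near, but mostly not on, the Pol II regions of untreated cells and of the siRNA arms. Set 1 listed 2 windows at Id1, 7 at Id2 and 5 at Id3. Set 2 listed 2 at Id1, 2 at Id2 and none at Id3. Across the genome set 1 held 419145 regions and set 2 held 126451. How many other intervals of this size hold listed Cbx3 was not counted, so these listings are not read as particular to the Id genes. The highest signals were 53.2, 55.7 and 49.1 in set 1 at Id1, Id2 and Id3, and 21.3 and 17.6 in set 2 at Id1 and Id2. A read has a different value in the 2 sets, so levels are given per set. On the inferred value of a read these highest windows held the equivalent of 12 to 14 reads in set 1 and of 8 to 10 in set 2.

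At Id1 the 2 sets listed different places. Set 1 had windows 3250 and 4100 bp to the right of the Pol II summit, and set 2 had windows 800 and 750 bp to its left. At Id2 set 1 listed 3 places. Of these, 3 windows on chr12:25780651-25780800, with signals from 18.6 to 23.0, ended where the leading Pol II region begins, and 2 windows at 54.9 and 55.7 lay inside the other Pol II region. Set 2 listed 2 windows on chr12:25783451-25783550, at 15.3 and 17.6, that ended where that same Pol II region begins. The right-hand Pol II region of Id2 was therefore the place where both sets and all 3 Pol II libraries had windows within 200 bp of each other. At Id3 set 1 listed 5 windows on chr4:135704451-135704700, from 30.8 to 49.1, 400 bp beyond the right-hand Pol II region and 4500 bp beyond the leading one.

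Of the 13 control Pol II regions, 1 overlapped a window of set 1 and 0 overlapped set 2. Across the genome, 39.5% of control Pol II regions overlapped set 1 and 11.8% overlapped set 2. Among regions with a Pol II signal between those of the leading Id regions, 55.9% overlapped set 1 and 16.8% overlapped set 2. Of the 13 regions, 7 were short and weak, and short regions have less room to overlap. The leading regions of Id1, Id2 and Id3 lay 3050, 0 and 4500 bp from the nearest set 1 window, and 650, 2000 and 16200 bp from the nearest set 2 window. The region with the low siRNA ratio, the leading one of Id2, thus bordered Cbx3 of set 1, and the Id3 region had no Cbx3 window in its interval closer than 4500 bp. The bordering windows, with signals from 18.6 to 23.0, were below the set 1 median of 33.8. Set 2 had no window closer than 2000 bp to that Id2 region. With 3 genes, no relation between Cbx3 distance and Pol II was tested.

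The nearest protein-coding neighbours, by gene order in RefSeq, are Mcts2 and Cox4i2 for Id1, Kidins220 and Rnf144a for Id2, and Rpl11 and E2f2 for Id3. After control siRNA the next listed Pol II window outside the interval was 25.3 kb from Id1 and 4.45 kb from Id3. At Id2 it was 1.75 kb away with a signal of 6.71, near the lowest listed one, and on the other side 49.2 kb away.

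The regions most like each gene were found by the mean absolute difference of log2 highest signal over the 9 libraries, with an unlisted library set to its lowest listed signal. The profile of a gene was the highest window of its interval in each library, so it mixes places. For Id2 it mixes the 2 strong Pol II regions. At Id1 the highest Cbx3 windows lay 3250 bp (set 1) and 750 bp (set 2) from the control Pol II summit. At Id3 the highest set 1 window lay 4800 bp from that summit. The likeness below is thus to these mixtures and to no single region of an Id gene. For Id1 the nearest was chr12:73765551-73766200, with a mean difference of 0.05. Its Pol II signals were 19.3 after Cbx3 siRNA, 23.1 after control siRNA and 17.3 in untreated cells. The other 2 were chr4:141639751-141641050 at 0.07 and chr8:97875851-97876750 at 0.08. For Id2 the nearest was chr18:5334201-5335100 at 0.04, with Pol II signals of 22.8 after Cbx3 siRNA, 34.4 after control siRNA and 22.2 in untreated cells. It was followed by chr2:150834551-150835400 at 0.05 and chr16:46010051-46010900 at 0.07. For Id3 they were chr8:113142101-113142950, chr17:24769301-24769900 and chr15:83425351-83425900, at 0.02 to 0.03. The Id3-like regions had Pol II signals of 33.8 to 35.1 after Cbx3 siRNA, 26.8 to 28.7 after control siRNA and 16.6 to 18.9 in untreated cells. They were chosen for having such signals, so this shows only that other regions with them exist. How common the pattern is was not counted. All 9 alike regions of the 3 genes lacked listed Med26 and Cdk8, which the measure itself favours.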

How the data were processed

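Files of 9 ChIP libraries entered the comparisons. The 7 inputs were not analysed here. Per the submitters' processing notes, reads were aligned with Bowtie to mm9, and how windows were tested, at what limit and against which input is not given in the sources used here. The deposited files hold a signal per 50 bp window, listed only above a minimum, as whole multiples of a step, with a tolerance of 0.05 steps. Coordinates count from 1. Windows up to 200 bp apart were joined, at least 1 bp counted as overlap, and a region took the signal of its highest window. Log2 ratios used signals as deposited, with no pseudocount. Intervals are 95% exact binomial or Poisson intervals on signal divided by the value of 50 steps. They cover counting error only. The fold limit was 1.5, with 2 as a second limit. Members, lists and limits were chosen with earlier results of these data known. Alike regions were taken by rule as the 3 with the smallest difference per gene. The joining and ratio steps were tested on simulated data with every window listed and higher counts than in the Id windows. How these steps behave with unlisted windows or low counts was therefore not tested. Pathway and marker gene lists were not run, since the available gene positions are of GRCm38. Scripts ran in Python 3.11.15 with scipy 1.17.1, numpy 2.4.6, matplotlib 3.10.9 and pandas 2.3.3.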

Additional observations from a re-analysis of the deposited data

How the results depend on the processing

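Of 37 alternative values of the Pol II ratios, the Mediator listings and the Cbx3 listings, 34 stayed within the counting interval, or within 1.5 times the count, of the reported one, and the cause of the other 3 was not tested. Many of the 34 could not move. A higher minimum cannot change a Mediator listing of 0 or a highest Pol II window above that minimum. The leading regions of Id1 and Id3 hold the highest windows of their intervals, so taking them alone repeats the reported ratio. Such values are no check on the reported ones. All 3 used the summed signal of the interval in place of the highest window. The log2 ratio was then -1.15 for Id1 between Cbx3 siRNA and control siRNA, 2.16 for Id1 between control siRNA and untreated cells, and 2.26 for Id2 between control siRNA and untreated cells. The counting intervals of all 6 interval-wide Pol II ratios include 0, so a value within them may differ in sign from the reported one. With 1 Cbx3 set left out at a time, the intervals with listed Cbx3 numbered 2 to 3, against 2 with both sets required. With windows of at least 2 times the lowest signal, Id3 gave no ratio of control siRNA to untreated cells. The leading Id2 region alone, an alternative chosen after seeing the data, gave -1.24. Joining touching windows only, or windows up to 1000 bp apart, moved 6 of 24 background shares, among them that of control Pol II regions not listed after Cbx3 siRNA, 26.7% as reported, which was 31.996% with touching windows and 20.8% at 1000 bp. No paired analysis was possible because no siRNA group holds more than 1 library.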
